A study of Mus musculus with 11 samples.

Results

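Among 5253 single cells taken from the cochlear duct floor of mice at embryonic day 14 (E14), 879 cells were set apart by a very high level of Oc90, the gene of otoconin 90, a main matrix protein of otoconia. The members were all E14 cells with a deposited Oc90 value of at least 3.5 and an Atoh1 value of 0, Atoh1 being the transcription factor gene that starts hair cell (HC) differentiation. The deposited value is the natural log of 1 plus a gene's unique molecular identifiers (UMIs, 1 per captured RNA molecule) per 10000 UMIs of the cell, so the threshold stands for 0.321% of a cell's UMIs. No position in the duct was measured, so they are called Oc90 cells here and not roof cells, and the 4374 remaining E14 cells are called other cells. The cells came from wild type CD1 mice, of either sex, and no mutation or treatment was used in any group. The series has 2 libraries at E14, 3 at E16, 4 at postnatal day 1 (P1) and 2 at P7, each made from the pooled cochleae of a litter with droplet capture (10x Genomics). The roof and the lateral wall of the duct were dissected away before capture, so a share of Oc90 cells and the completeness of the dissection cannot be told apart. Within each E14 library the Oc90 cells and the other cells shared dissection, capture and sequencing.

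The cochlear duct is an epithelial tube. Its floor carries the prosensory domain that gives rise to HCs and supporting cells, flanked by Kölliker's organ (KO) on the medial side and the lesser epithelial ridge (LER) on the lateral side, and its roof becomes Reissner's membrane, which parts 2 fluids of different ion content. Otx2, a homeodomain transcription factor, is a known marker of nonsensory cells of the duct, including the roof. Ttr encodes transthyretin, the carrier of thyroid hormone and, through retinol-binding protein, of retinol, and is best known from the choroid plexus and the liver. Vmo1 is named for a protein of the outer vitelline membrane of bird eggs. Otoa encodes otoancorin, which anchors the tectorial membrane and is known from interdental cells at the medial edge of the floor.

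In the mm10 (GRCm38) annotation Oc90 is a protein-coding gene on the minus strand of chr15:65876053-65912397, Otoa lies on the plus strand of chr7:121081650-121163097, Otx2 on the minus strand of chr14:48657677-48673819 and Vmo1 on the minus strand of chr11:70513516-70514616. Since Otx2 and Gsc, 2 of the transcription factors measured in these cells, are homeodomain proteins of the kind that binds TAATCC, the 250 bases before the Vmo1 start were read from the RefSeq promoter table of GRCm38.p6 (chr11:70514617-70514866, minus strand). The sequence is shown 5′ to 3′ with the TAATCC match in capitals.

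Vmo1 upstream: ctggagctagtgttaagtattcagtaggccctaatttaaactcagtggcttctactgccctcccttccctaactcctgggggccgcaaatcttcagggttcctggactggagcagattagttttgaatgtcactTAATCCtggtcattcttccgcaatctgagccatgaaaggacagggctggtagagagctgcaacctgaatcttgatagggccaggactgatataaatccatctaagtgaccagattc

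It held 1 match on either strand, which began 116 bases before the start. Of 32851 promoters in that table, 2054 (6.25%) held TAATCC on either strand in the same 250 bases. The same search of the 250 bases before the RefSeq start of Otx2 (chr14:48667645-48667894, minus strand) found no match in this window. The table held entries for 2 of the 4 genes that label these cells. A match of letters is a description of the sequence only, and no binding was measured.

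The level of Oc90 was used to choose the cells and is given as a description. No Oc90 UMI was found in 3083 of the 5253 cells, and 799 of the 879 members had a value of 5 or more. Only 177 cells lay between 2 and 5. The threshold fell in this sparse range, with 4 cells in the 0.25 units below it and 8 cells in the 0.25 units above it. The lowest member had a value of 3.51 and the highest cell below the threshold one of 3.46. Oc90 made up a median of 3.40% of the UMIs of a member in library 1 and 3.0% in library 2, and at most 8.21% and 13.5%. Of the other cells, 31.4% in library 1 and 28.1% in library 2 carried at least 1 Oc90 UMI, at a mean level of 106 and 127 CPM (UMIs of the gene per 1000000 UMIs, the unit of all levels below). Drawn at random to 1500 UMIs per cell, 13.2% and 12.2% of them did, and the part of free RNA in this was not tested. Another 4 cells above the Oc90 threshold, 2 in each library, had an Atoh1 UMI and were left out.

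**Figure D1:**
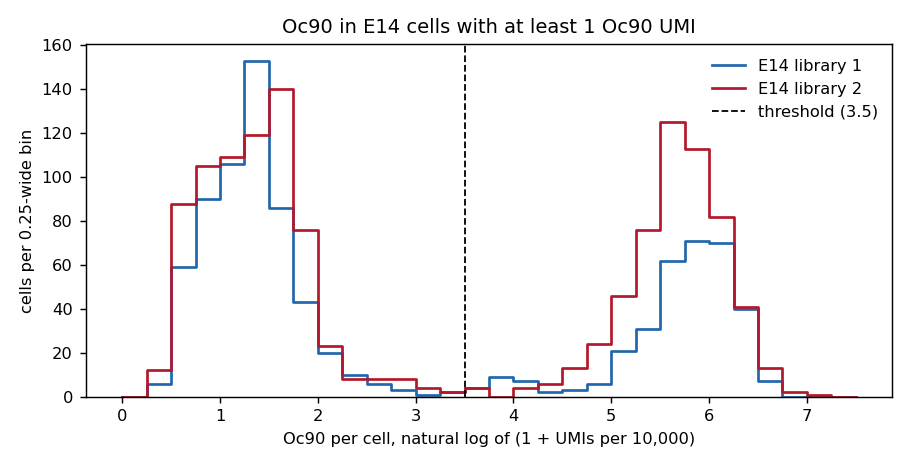
Number of E14 cells per bin of 0.25 (vertical axis) by deposited Oc90 value, the natural log of 1 plus UMIs per 10000 (horizontal axis), for the cells with at least 1 Oc90 UMI in library 1 (blue) and library 2 (red). Cells gathered on either side of the threshold at 3.5 (dashed line), with 177 cells between 2 and 5.

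Oc90 cells made up 331 of 2198 cells in library 1 (15.1%, exact 95% interval 13.6 to 16.6) and 548 of 3055 in library 2 (17.9%, 16.6 to 19.3). The same rule found 58 of 1247, 108 of 2813 and 304 of 3901 cells in the 3 E16 libraries (4.65%, 3.84% and 7.79%). In the 4 P1 libraries it found 69 of 3748, 16 of 2179, 9 of 2518 and 67 of 5598 cells (1.84%, 0.734%, 0.357% and 1.2%). At P7 it found none of 1775 cells in library 4, which allows a share of up to 0.169% (3 counts of the total), and 4 of 1602 in library 5. The shares at E14 lay above those of every later library, and the intervals cover counting error only.

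The E14 libraries held 10284467 and 14420835 UMIs. The median Oc90 cell held 4569 and 4361 UMIs in libraries 1 and 2 and the median other cell 3313 and 3093, so shares of cells with a UMI were compared after drawing each cell down to 1500 UMIs. The libraries shared 11 cell barcodes, none of them among the Oc90 cells. The table held more cells than the study gives for E14. Inside the gene and UMI limits of its methods (200 to 3000 genes, 1500 to 15000 UMIs, each read as a limit of its own) were 4361 of the 5253 cells and 682 of the 879 Oc90 cells, and the cells outside all had more than 3000 genes or 15000 UMIs. No doublet caller was run, and the results are also given for cells of at most 3000 genes where a call or count turned on it.

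The labelled tissue, cochlear epithelium, was checked against defining markers. Of 7 epithelial genes, among them Epcam and the keratins Krt8 and Krt18, 6 were called higher in Oc90 cells and none lower by the limma test given below, which called 19.1% of all genes higher and 23.2% lower, and they summed to 6333 and 5595 CPM in the Oc90 cells and 3994 and 3447 CPM in the other cells. Of 6 immune genes, 5 were at 0 in the Oc90 cells of library 1 and all 6 in those of library 2. The endothelial genes Cdh5, Tek and Esam and the melanocyte genes Dct, Tyr, Tyrp1 and Mlana were at 0 in the Oc90 cells of both libraries, and Cdh5 and Tyr also in the other cells. The whole endothelial list summed to 51.2 and 46.1 CPM in Oc90 cells and 41.0 and 35.1 CPM in other cells, nearly all from Egfl7 and Pecam1, which did not pass the test. The melanocyte list summed to 14.5 and 9.18 CPM and 8.21 and 9.06 CPM, with Pmel (7.94 and 4.31 CPM against 2.42 and 0.943 CPM) and Mitf (6.37 and 4.60 CPM against 1.31 and 1.46 CPM) at higher levels in Oc90 cells, both under the filter and not tested. Among 12 genes used to mark mesenchyme, Twist1, Twist2 and Prrx1 were at 0 in the Oc90 cells of both libraries, and the sum (679.9 and 580.2 CPM) came nearly all from Dcn, Lum and Postn, 3 secreted matrix proteins. Of these, Dcn and Lum were lower than in the other cells, where the list summed to 2124 and 1969 CPM. Genes induced by tissue dissociation, such as Fos, Junb, Egr1 and Atf3, summed to 6054 and 6816 CPM in the Oc90 cells and 5576 and 4755 CPM in the other cells, with 9 of 11 called higher and 1 (Jun) lower by the same test (19.1% and 23.2% over all genes). Their part in the differences below was not tested. Among neuron and glia genes Stmn2, a gene of neurons, was lower (2.67 and 0.234 CPM against 20.7 CPM or more). Haemoglobin and other red cell genes reached 34.1 and 1.22 CPM in the Oc90 cells and 42.0 and 0.822 CPM in the other cells in libraries 1 and 2. Mitochondrial transcripts summed to 5226 and 7422 CPM and 6325 and 8698 CPM, with 3 of 6 tested genes lower in Oc90 cells and none higher (23.2% and 19.1% over all genes).

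Oc90 cells and other cells were compared gene by gene with 1 mean profile of each class per library. In all, 8992 genes whose mean level over the profiles of both classes reached 10 CPM were tested. Oc90 and Atoh1 were left out because they chose the cells. A gene near 0 in 1 class was thus tested only if it was high enough in the other, which partly set the direction of its call. The list counts below share this limit. At an adjusted p under 0.05 (limma, Benjamini-Hochberg, library as block), 1720 genes (19.1%) were higher and 2086 (23.2%) lower in Oc90 cells, and the median difference over all genes was -0.04 on the log2 scale. Differences are on the scale log2(CPM + 10), which understates the change of low genes. Since both classes were drawn from the Oc90 level of the same cells, these shares say how far the classes differ and are not independent support for the class. With 2 libraries the fit had 1 residual degree of freedom and took most of its variance from the other genes, so that its small p-values rest on that pooled variance. Between the libraries, the sign of the difference was the same for 3801 of the 3806 called genes and for 79.3% of all genes tested. The calls were made from these same differences, so the agreement among called genes was largely set by their choice.

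The label's other markers were measured in part of the Oc90 cells. Ttr averaged 467 and 253 CPM in the Oc90 cells of libraries 1 and 2 and 0.403 and 1.34 CPM in the other cells. Vmo1 stood at 89.9 and 65.3 CPM against 0.674 and 0.162 CPM, and Otx2 at 132 and 112 CPM against 0.725 and 0.937 CPM. For all 3 genes the lower Oc90 value was far above the higher other value. In counts, the 879 Oc90 cells held 1743 Ttr UMIs and the 4374 other cells 15. After drawing to 1500 UMIs, Ttr was found in 17.8% (13.9 to 22.4) of Oc90 cells in library 1 and 13.3% (10.6 to 16.5) in library 2. Among the other cells it was found in 0 of 1867 in library 1, which allows a share of up to 0.161% (3 counts of the total), and in 0.0798% in library 2. Otx2 was found in 14.2% and 13.0% of Oc90 cells against 0.161% and 0.160% of other cells. At this depth neither gene was found in most Oc90 cells.

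The largest differences upward were in genes of several kinds. Ecel1, a membrane metalloprotease gene known from neurons, averaged 517 and 604 CPM in Oc90 cells and 5.87 and 5.16 CPM in other cells, a log2 difference of 5.20 ± 0.10 (SE). After drawing it was found in 47.1% and 50.4% of Oc90 cells and 0.803% and 0.798% of other cells. Kctd8, an auxiliary subunit of GABA-B receptors, was next after Ecel1 and Ttr, with 269 and 274 CPM against 0.776 and 0.712 CPM. Slc6a15, a transporter of neutral amino acids, stood at 365 and 260.4 CPM against 3.07 and 2.98 CPM. Both genes are best known from the nervous system, and in both the Oc90 values lay far above the other values.

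Several secreted or matrix-related genes were among the largest differences. Postn, the gene of the matrix protein periostin, was at 160.1 and 142 CPM in Oc90 cells and 0.412 and 1.38 CPM in other cells, and Fam20a, a secretory pathway pseudokinase that aids the phosphorylation of enamel proteins, at 169.9 and 183 CPM against 0.377 and 1.33 CPM. Ccdc3 and Fibin, both secreted, differed by 4.10 ± 0.13 (SE) and 3.74 ± 0.12 (SE) on the log2 scale. Anxa1, a calcium-dependent phospholipid-binding protein, was at 146 and 191 CPM against 0.427 and 0.111 CPM. Enpep, the cell surface aminopeptidase A, was at 159 and 204 CPM against 2.37 and 1.65 CPM. The calcium channel subunit Cacna2d1 and Dapl1 were also higher (4.07 ± 0.12 (SE) and 4.63 ± 0.12 (SE)).

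Genes of a roof and patterning list, which holds transcription factors, the ligands Fgf9 and Wnt4, and Ttr, Vmo1 and Enpep, were mostly higher in Oc90 cells. Of 15 tested genes 13 were called higher and 2 lower, against 19.1% and 23.2% of all genes, and the list median was 2.31. The list holds the label's markers, so this count is a description. Gsc, the goosecoid homeodomain factor, averaged 172 and 166 CPM against 0.606 and 0.436 CPM. Tbx1, a T-box factor needed for inner ear growth and outside this list, averaged 187 and 213 CPM against 6.35 and 5.14 CPM. Lmx1a, a LIM homeodomain factor that marks nonsensory otic epithelium, was less selective at 152 and 159 CPM against 29.4 and 18.3 CPM. Otx1, Meis1, Meis2 and Pax2 were higher by 1.90, 2.30, 2.74 and 1.42. The 2 lower members were Gata3 (86.3 and 71.7 CPM against 406 and 350.1 CPM) and Msx1 (12.6 and 7.38 CPM against 21.8 and 24.3 CPM), whereas Gata2, a relative of Gata3, was higher (322 and 299 CPM against 256 and 166 CPM). Lmx1b, Wnt3a, Wnt2b, Zic1 and Pax8 were not analysed here, and Msx2 was under the filter.

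**Figure D2:**
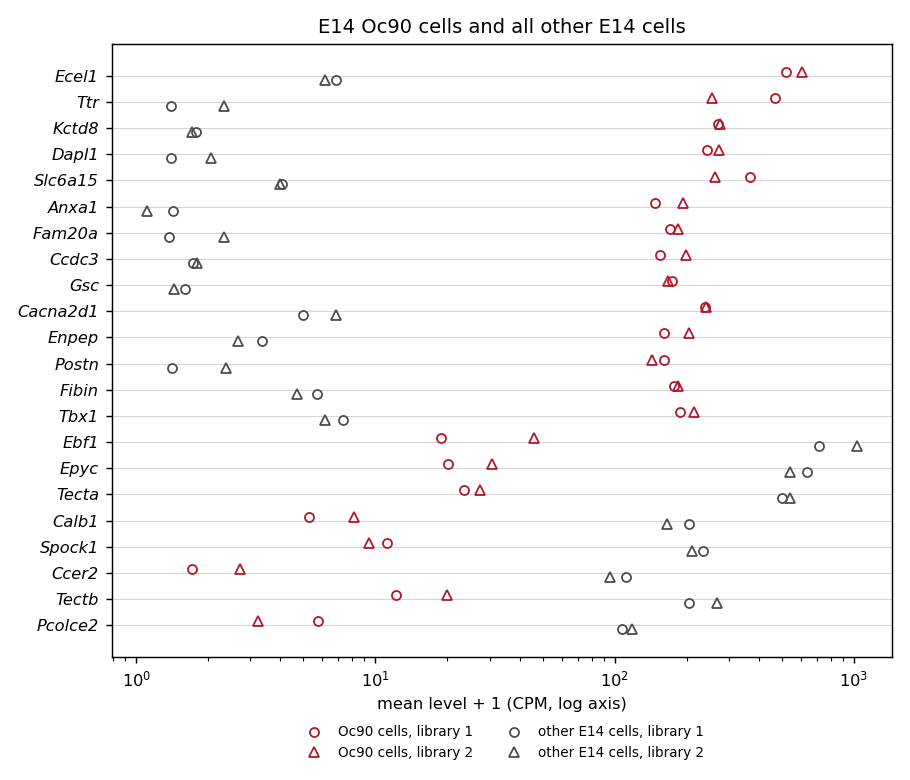
Mean level plus 1 in CPM (horizontal, log axis) of the 14 largest rises and 8 largest falls that met the naming rule (vertical), in Oc90 cells (red) and other E14 cells (grey) of library 1 (circles) and library 2 (triangles), with 1 point per class and library. In each of the 22 genes both libraries' red points lay on the same side of both grey points, and Anxa1 and Ttr were near 0 in other cells.

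Genes of the sensory and medial floor were low in Oc90 cells. All 9 tested members of the prosensory list were called lower (23.2% over all genes). Some of them, such as Sox2 and Fgf20, reached the filter only through the other cells, so this count is a description. Sox2, the factor required for prosensory specification, was at 5.16 and 0.839 CPM in Oc90 cells and 80.8 and 33.8 CPM in other cells, Fgf20 at 0 and 0.217 CPM against 24.3 and 25.8 CPM, and Isl1 at 76.9 and 46.0 CPM against 568 and 507 CPM. The smallest fall in this list was that of Socs2 (-0.36 ± 0.07 (SE)), at 279 and 305 CPM against 397 and 360.3 CPM. In the medial floor and interdental list 9 of 11 were lower and 1, Otoa, higher (23.2% and 19.1% over all genes). Epyc, a small leucine-rich proteoglycan, averaged 19.2 and 29.7 CPM against 635 and 541 CPM, and the calcium-binding protein gene Calb1 4.30 and 7.10 CPM against 204 and 164 CPM. Smoc2, a calcium-binding matrix protein chosen by the study from the same libraries, did not pass the test (-0.04 ± 0.07 (SE)). Otoa itself, at 79.2 and 43.6 CPM against 25.6 and 23.8 CPM, was 1.00 ± 0.14 (SE) higher on the log2 scale.

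HC and LER genes were lower as well. Pou4f3, an HC transcription factor, was at 0 in the Oc90 cells of both libraries and at 29.1 and 24.8 CPM in other cells. Cells with an Atoh1 UMI had been left out of the class, so HC genes are not independent of the rule. Of 7 tested HC genes 5 were lower (23.2% over all genes) and 1 (19.1% over all genes), Myo6, higher (44.9 and 45.5 CPM against 31.7 and 28.1 CPM). Ccer2 had 10 UMIs in the 879 Oc90 cells and 2381 in the other cells. The study named it as an HC marker from its own single-cell data at P1 and located it in HCs by in situ hybridization. In the LER list 6 of 7 were lower (23.2% over all genes), led by the activin antagonist Fst (33.4 and 29.2 CPM against 276 and 269 CPM) and Bmp4 (20.2 and 12.5 CPM against 216 and 78.3 CPM), and only Gata2 was higher (19.1% over all genes). The largest fall among the named genes was that of Ebf1, a helix-loop-helix factor, from 712 and 1028 CPM in other cells to 17.8 and 44.8 CPM in Oc90 cells (-4.47 ± 0.09 (SE), limma adjusted p = 8.61e-20).

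Genes of otoconia and of the tectorial membrane did not move together. Of 18 tested genes 7 were higher and 9 lower (19.1% and 23.2% over all genes), with a list median of -0.23. Tecta and Tectb, which encode alpha- and beta-tectorin of the tectorial membrane, were at 22.5 and 26.3 CPM and 11.2 and 18.9 CPM in Oc90 cells against 500.3 and 541 CPM and 203 and 267 CPM in other cells. Otol1, the collagen-like otolin that is the partner of otoconin 90 in the otoconial matrix, was lower in Oc90 cells (33.5 and 31.4 CPM against 107 and 129 CPM). Sparc, a calcium-binding matrix protein that otoconia also contain, was higher (1433 and 1480.4 CPM against 1164 and 1108 CPM). Noxo1 and Cyba, subunits of the Nox3 oxidase complex needed for otoconia, were higher by 0.96 ± 0.15 (SE) and 0.79 ± 0.09 (SE), while Otop1, another gene needed for otoconia, had no UMI in Oc90 cells of either library. Nox3 was not analysed here. Otog, encoding otogelin, was at 114 and 92.9 CPM and 88.1 and 92.3 CPM and did not pass the test. The cartilage-type collagens Col2a1, Col9a1, Col9a2 and Col11a1 were lower by small amounts (-0.17, -0.30, -0.56 and -0.53), and Col9a3 was higher (0.35).

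Of the retinoid and thyroid hormone genes 8 of 16 were higher and 7 lower (19.1% and 23.2% over all genes). Besides Ttr, the higher ones included Aldh1a1, a retinaldehyde dehydrogenase (62.4 and 63.4 CPM against 0.981 and 1.35 CPM), Cyp26a1, which breaks down retinoic acid (69.5 and 91.8 CPM against 4.41 and 9.78 CPM), and Rdh10, which oxidises retinol (50.9 and 47.4 CPM against 10.5 and 9.16 CPM). The lower ones included both cellular retinoic acid-binding proteins, Crabp1 (1.40 and 2.32 CPM against 85.8 and 57.2 CPM) and Crabp2 (205 and 208 CPM against 489 and 467 CPM), and the other tested degrading enzyme, Cyp26b1 (8.53 and 4.64 CPM against 35.2 and 35.0 CPM). The thyroid hormone receptor Thrb was also lower, with a log2 difference of -1.63 ± 0.16 (SE), and Thra higher, with one of 0.32 ± 0.11 (SE).

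In the Fgf pathway 4 of 12 tested genes were higher and 8 lower (19.1% and 23.2% over all genes). The ligand Fgf9, known from the roof and other nonsensory epithelium, was at 119 and 100.1 CPM in Oc90 cells and 19.5 and 14.7 CPM in other cells, while Fgf10 and Fgf20 were at 3.22 and 3.20 CPM and 0 and 0.217 CPM against 26.7 and 35.5 CPM and 24.3 and 25.8 CPM. The receptor Fgfr2 was higher (89.3 and 100.4 CPM against 18.1 and 16.4 CPM) and Fgfr3 lower (0.761 and 2.47 CPM against 26.3 and 19.6 CPM). The target genes Etv4 and Etv5 were lower (-1.52 and -1.07) and Dusp6, another target, higher (0.85).

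In the Wnt pathway 4 of 24 tested genes were higher and 11 lower (19.1% and 23.2% over all genes). The ligand Wnt4 averaged 89.8 and 55.6 CPM against 2.12 and 1.77 CPM, whereas Wnt7a (2.45 and 0.823 CPM against 28.8 and 24.8 CPM) and Wnt7b (79.7 and 83.4 CPM against 146 and 140.0 CPM) were lower. Of the R-spondins, which raise Wnt signalling, Rspo3 was higher (21.8 and 29.7 CPM against 2.69 and 4.02 CPM) and Rspo2 lower (11.5 and 9.50 CPM against 51.0 and 41.9 CPM). Of the secreted inhibitors, Dkk2 was higher (28.7 and 61.7 CPM against 0 and 0.184 CPM) and Dkk3 lower (9.80 and 8.57 CPM against 74.6 and 75.5 CPM). The general Wnt target Axin2 did not pass the test (12.2 and 9.58 CPM against 18.0 and 14.1 CPM).

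Of 17 tested Bmp genes 5 were higher and 6 lower (19.1% and 23.2% over all genes). The antagonist Nog was higher (70.7 and 63.4 CPM against 18.4 and 16.9 CPM) and the ligand Bmp4 lower, as given above. Among the Id genes, which respond to Bmp signals, Id4 was higher by 2.08 ± 0.06 (SE), Id1 and Id3 by 0.56 and 0.26, and Id2 was lower (-0.74). In the Notch list 1 of 8, Hes1, was higher and 5 lower (19.1% and 23.2% over all genes). Hes1 was at 874 and 599 CPM in Oc90 cells and 886 and 371 CPM in other cells, so it was lower in Oc90 cells in library 1 and higher in library 2.

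Proliferation genes were lower in Oc90 cells. Of 23 tested genes 21 were called lower and none higher (23.2% and 19.1% over all genes), with a median of -0.82. Top2a, the topoisomerase of dividing cells, was at 12.7 and 14.7 CPM against 38.1 and 58.9 CPM and Mki67 at 9.15 and 15.4 CPM against 21.9 and 27.5 CPM. After drawing to 1500 UMIs, a Top2a UMI was found in 2.42% (1.05 to 4.71) and 1.46% (0.632 to 2.86) of Oc90 cells and in 4.12% (3.27 to 5.13) and 7.26% (6.27 to 8.35) of other cells. The D cyclins differed among themselves: Ccnd1 was lower (92.8 and 86.9 CPM against 341 and 379 CPM), and Ccnd2 (156 and 117 CPM against 21.8 and 17.1 CPM) and Ccnd3 were higher. The kinase inhibitors Cdkn1a, Cdkn1c and Cdkn2b were higher by 0.95, 0.83 and 1.77, and Cdkn1b, an inhibitor of the prosensory domain, was lower (-1.33).

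Junction and barrier genes were mostly higher, with 16 of 25 called higher and 5 lower (19.1% and 23.2% over all genes). Cldn4 (1164 and 1179.7 CPM against 291 and 243 CPM) and Cldn8 (146 and 117 CPM against 10.0 and 8.68 CPM) encode claudins of tight junctions, and Krt19 a keratin of simple epithelia (451 and 384 CPM against 45.3 and 40.4 CPM). Cdh1 was higher (95.4 and 96.9 CPM against 43.4 and 42.5 CPM) and Cdh2 lower (17.8 and 20.4 CPM against 80.8 and 79.5 CPM). The 3 tested gap junction genes were lower, with Gjb2 at 104 and 84.2 CPM against 719.6 and 596 CPM. Among ion and water transporters 5 of 11 were higher and 3 lower (19.1% and 23.2% over all genes). The water channel Aqp5 stood out at 150.4 and 166 CPM against 4.40 and 3.04 CPM, the sodium, potassium and chloride cotransporter Slc12a2 was lower (11.8 and 20.2 CPM against 125 and 156 CPM), and Kcnq1 and Kcne1, the potassium channel pair of the stria vascularis, were at 1.16 and 5.04 CPM and 6.11 and 5.06 CPM in Oc90 cells, under the filter. In the secretory pathway 12 of 24 genes were higher and 3 lower (19.1% and 23.2% over all genes), with differences between -0.25 (Pdia4) and 0.61 (P4hb) on the log2 scale.

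The Oc90 cells were then split by Otoa. An Otoa UMI was found in 65 of 331 Oc90 cells in library 1 (19.6%, exact 95% interval 15.5 to 24.3) and 72 of 548 in library 2 (13.1%, 10.4 to 16.3), against 6.59% and 6.22% of other cells. Cells with Otoa were deeper, with medians of 5031 and 6466 UMIs against 4550 and 4192 in cells without it. Drawn to 1500 UMIs, the shares were 9.97% and 5.84% of Oc90 cells and 2.95% and 3.11% of other cells. Otoa averaged 403 and 332 CPM in the cells with it, a value fixed by the split and not tested.

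Of 8966 genes tested between the Oc90 cells with and without Otoa, 302 (3.37%) were higher and 264 (2.94%) lower in the cells with it (limma adjusted p under 0.05, library as block). The fit took its variance wholly from the genes as a group, so its p-values rest on that shared variance. The 2 sets of cells were drawn from Otoa in the same cells, which again makes the counts a description. With both sets drawn to 1500 UMIs 108 genes were higher and 120 lower, and in cells of 2500 to 6000 UMIs 106 and 117, and 216 and 207 of the 566 calls remained. The window left 35 and 24 cells with Otoa, and the parts of depth and cell number in the lower count cannot be told apart. The sign was the same in both libraries for 565 of the 566 called genes and for 58.0% of all genes tested. Here, too, the agreement among called genes was largely set by their choice from the same libraries.

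The label's markers gathered in the cells with Otoa. Ttr averaged 1662 and 689.5 CPM in Oc90 cells with Otoa and 175 and 187 CPM in those without it. Vmo1 stood at 305 and 196 CPM against 37.3 and 45.5 CPM. Otx2 was spread more evenly, at 202 and 216 CPM against 115 and 96.5 CPM (0.93 ± 0.18 (SE)). At 1500 UMIs per cell, Ttr was found in 63.1% (50.2 to 74.7) and 48.6% (36.6 to 60.7) of cells with Otoa and in 6.77% (4.06 to 10.5) and 7.98% (5.71 to 10.8) of cells without it. Vmo1 was found in 35.4% and 25.0% against 4.89% and 4.83%. The intervals of both genes lay apart, and those of Otx2 overlapped in both libraries (20.0% and 22.2% against 12.8% and 11.6%).

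Wnt4 had the largest difference toward the cells with Otoa, at 302 and 204 CPM against 37.8 and 33.2 CPM (2.51 ± 0.21 (SE), limma adjusted p = 9.07e-31). A2m, the protease inhibitor alpha-2-macroglobulin, was at 225 and 98.8 CPM against 25.1 and 17.7 CPM, and the cells with Otoa of library 1 stood well above those of library 2. Rnase1, a secreted ribonuclease, was at 139.6 and 68.4 CPM against 17.1 and 8.40 CPM. Clic6, a chloride channel protein, and Jakmip2 were higher by 2.13 and 2.12, and Tmem108 was at 119 and 125 CPM against 21.9 and 19.9 CPM. Clic6 was also high in other cells (208 and 223 CPM), while A2m had 1 UMI in all 4374 of them.

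Several genes lower in the cells with Otoa were among those named above as highest over the other cells. Anxa1 was at 0 and 1.38 CPM in cells with Otoa and 182 and 220.0 CPM in cells without, with 1 UMI in 137 cells against 792 UMIs in 742 cells. Enpep was at 1.45 and 17.8 CPM against 198 and 233 CPM, Ecel1 at 61.8 and 115 CPM against 628 and 678 CPM and Gsc at 9.30 and 41.3 CPM against 212 and 185 CPM. Vwc2, a secreted Bmp antagonist, was at 2.94 and 7.77 CPM against 133 and 149.9 CPM, Gata2 at 30.3 and 55.0 CPM against 393 and 336 CPM and Sparcl1, a matrix protein, at 22.3 and 40.4 CPM against 234 and 281 CPM. Dlx2, a homeodomain factor, had no UMI in the 137 cells with Otoa, under the floor of 3 UMIs over the set, and was at 74.7 and 34.8 CPM in the cells without it. At 1500 UMIs per cell, an Ecel1 UMI was found in 12.3% and 11.1% of cells with Otoa and in 55.6% and 56.3% of cells without it.

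**Figure D3:**
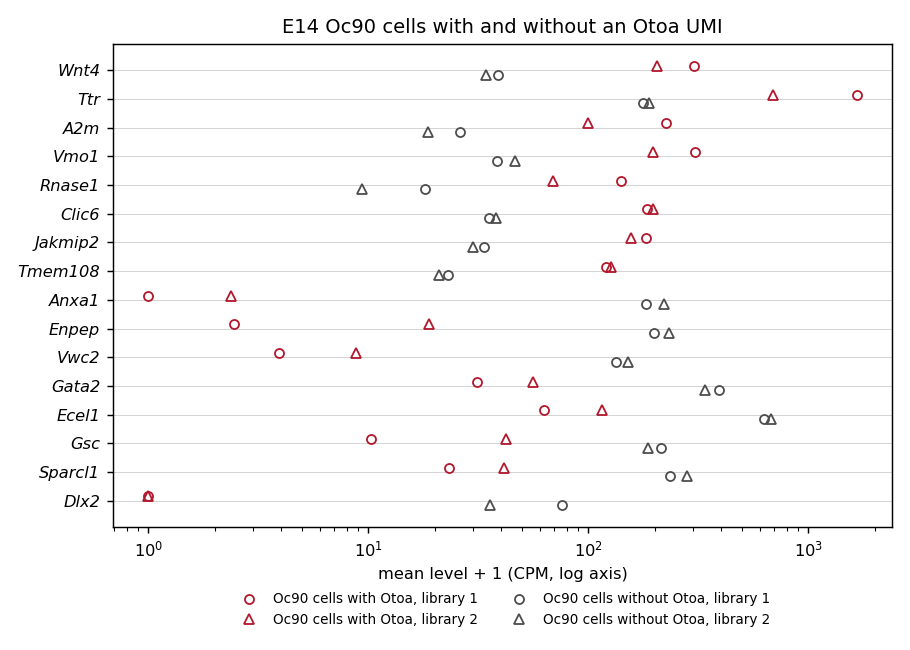
Mean level plus 1 in CPM (horizontal, log axis) of the 8 genes highest and the 8 lowest in Oc90 cells with an Otoa UMI by the naming rule (vertical), in Oc90 cells with Otoa (red) and without it (grey), library 1 as circles and library 2 as triangles. For each gene both red points lay on the same side of both grey points, and Dlx2 was at 0 in both libraries of the cells with Otoa.

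**Figure D4:**
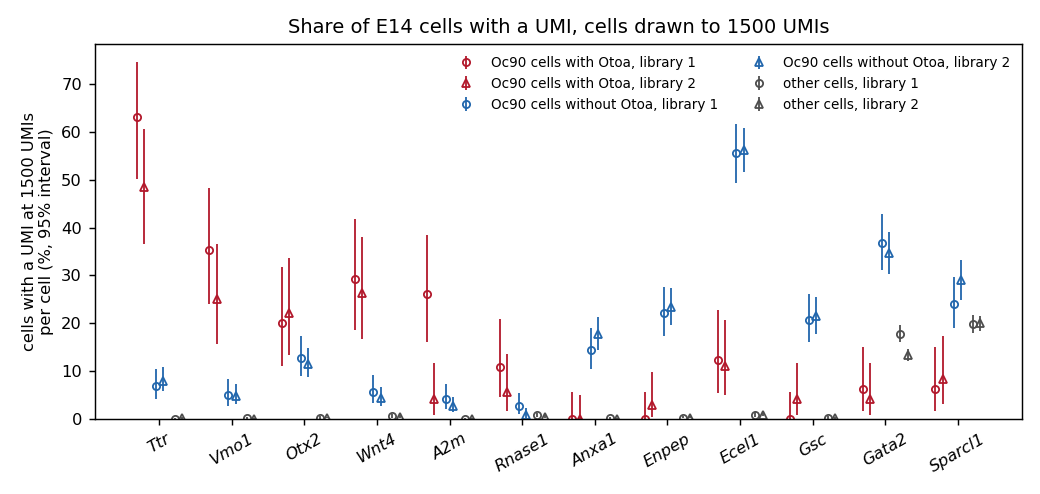
Percent of cells with at least 1 UMI of each gene after drawing every cell to 1500 UMIs (vertical axis), for Oc90 cells with Otoa (red), without Otoa (blue) and other E14 cells (grey), library 1 as circles and library 2 as triangles, with exact 95% intervals for counting error. Ttr, Vmo1 and Wnt4 were found most often in the cells with Otoa, and Ecel1, Gata2, Enpep and Gsc in the cells without it.

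Among the gene lists, the split ran through the roof and patterning genes, with 6 of 14 higher and 6 lower in cells with Otoa (3.37% and 2.94% over all genes) and a median of -0.06 (0.03 over all genes). Otx1, Otx2, Fgf9, Wnt4, Ttr and Vmo1 were higher, and Gsc, Meis1, Pax2, Gata2, Gata3 and Enpep lower. Lmx1a and Meis2 did not pass the test. Of 17 otoconia and matrix genes 1 was higher and 6 lower (3.37% and 2.94% over all genes): Otog, encoding otogelin, was at 209 and 226 CPM against 91.3 and 72.8 CPM, and Sparc and Cyba were lower (-0.73 and -0.59). In the retinoid list Rdh10 (97.8 and 85.2 CPM against 39.5 and 41.7 CPM) and Stra6, the retinol uptake receptor, were higher beside Ttr, and Aldh1a1 (23.7 and 23.0 CPM against 71.9 and 69.6 CPM) and Cyp26a1 (8.22 and 32.7 CPM against 84.5 and 101 CPM) were lower. The retinol oxidising enzyme gene Rdh10 and the enzyme genes Aldh1a1 and Cyp26a1, all higher in Oc90 cells than in other cells, thus went to opposite sides of the split.

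The Wnt list also divided, with 4 of 20 higher and 4 lower. Over all genes this split called 3.37% higher and 2.94% lower, which is the background of each list count that follows. Beside Wnt4, the higher genes were Rspo2 (43.3 and 22.4 CPM against 3.68 and 7.54 CPM), Sfrp2 and the feedback inhibitor Nkd1, and the lower were Dkk2 (2.21 and 0 CPM against 35.2 and 71.1 CPM), Rspo3, Wnt5a and Sfrp1. Of 12 tested ion and water transporters 5 were lower in cells with Otoa and none higher (2.94% and 3.37% over all genes), among them Aqp5 (41.7 and 45.3 CPM against 177 and 184 CPM), the carbonic anhydrases Car2 and Car13, and the anion exchanger pendrin, encoded by Slc26a4 (0 and 2.52 CPM against 18.6 and 22.0 CPM). Of 17 Bmp genes 4, Id2, Id4, Bambi and Smad7, were lower. The Fgf list had Fgf9 and Spry1 higher and Fgfr2 lower of 10 tested, the Notch list Hes1 lower of 6, and the inhibitor and D cyclin list Cdkn2b and Ccnd2 higher and Cdkn1c lower of 7. Among 23 junction and keratin genes Cldn3, Ocln, Krt18 and Krt19 were higher and Cldn11 and Gjb2 lower, and Krt18 alone of the 7 epithelial genes was higher. In the lists of the floor, Smoc2 was higher and Foxq1 lower of 5 medial genes, Eya1 higher and Isl1 lower among the prosensory genes, and Gata2 and Gata3 lower of 5 LER genes. No call was made among 4 tested HC genes, 20 proliferation genes or 24 secretory pathway genes, and 3 of 6 mitochondrial transcripts were higher. Postn was higher in cells with Otoa (346 and 331 CPM against 115 and 114 CPM), and Dcn and Lum were lower. Of 11 dissociation genes 2 were higher and 4 lower, with sums of 6349 and 5675 CPM with Otoa and 5982 and 6988 CPM without it.

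Otoa and Ttr marked overlapping sets of Oc90 cells. In libraries 1 and 2, 44 and 46 Oc90 cells had UMIs of both genes, 21 and 26 of Otoa only, 29 and 54 of Ttr only, and 237 and 422 of neither, so 71.6% and 77.0% had neither. Cells with Ttr only differed from those with neither toward the cells with Otoa in the other genes named for the split. For some, such as Wnt4 in library 1, they still lay nearer in CPM to the cells with neither. Their Wnt4 level was 136 and 199 CPM, compared with 25.9 and 11.9 CPM in cells with neither gene and 332 and 271 CPM in cells with both. Their Anxa1 level was 0 and 2.66 CPM against 204 and 248 CPM, and their Ecel1 level 111 and 111 CPM against 691 and 750.4 CPM. Their Postn level was 429 and 408 CPM, against 187 and 242 CPM with Otoa only and 76.4 and 76.4 CPM with neither. Oc90 itself was alike in all 4 sets, at 35529 and 27751 CPM with both genes and 34213 and 32878 CPM with neither. The median depth of the Ttr only cells was 4426 and 3980 UMIs, near that of cells with neither (4553 and 4272), whereas cells with both had 6005 and 8188.5. These sets were drawn from measured values and are described without a test.

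The Otoa split differed between Oc90 cells and other cells. Of 9042 genes tested for a difference between the 2 splits, 158 (1.75%) were more positive in Oc90 cells and 116 (1.28%) more negative (limma adjusted p under 0.05). Hs3st1, a heparan sulphate sulphotransferase, was higher with Otoa in Oc90 cells (118 and 129 CPM against 41.9 and 33.4 CPM) and lower with Otoa in other cells (7.85 and 2.58 CPM against 149 and 107 CPM). Emx2, a homeodomain factor, had the same signs (147 and 65.3 CPM against 40.4 and 25.6 CPM in Oc90 cells). For Fst, Tac1 and Rprm the difference came with a large contrast in other cells, where Fst was at 2.54 and 11.5 CPM with Otoa and 296 and 286 CPM without it. Anxa1, Enpep and Vwc2 were low in both sets of other cells, and Sparcl1 was not (193 and 266 CPM with Otoa). Foxq1, which the study picked as a marker from the same libraries, was higher with Otoa in other cells (267 and 331 CPM against 49.1 and 54.3 CPM) and lower with Otoa in Oc90 cells (2.96 and 22.4 CPM against 26.6 and 38.4 CPM). Smoc2 was higher with Otoa among Oc90 cells (513 and 494 CPM against 167 and 157 CPM) and more so among other cells (955 and 1013 CPM with it). Drawn to 1500 UMIs 59 genes differed between the splits, in cells of at most 3000 genes 109, and with no filter on low values 7.

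Oc90 cells at E14 were compared with the cells chosen by the same rule at E16 and P1, with the library as replicate. All 3 ages entered 1 fit, so the 2 comparisons share the E14 libraries. Oc90 averaged 34747 and 32401 CPM at E14, 24082, 22382 and 39534 CPM at E16 and 52162, 62879, 43342 and 44493 CPM at P1. Between E14 and E16, 15 of 8923 genes (0.168%) were lower at E14 and 0 (0%) higher by limma at an adjusted p under 0.05, while 126 were higher and 241 lower at an unadjusted p under 0.05. The median difference over all genes was 0.11 on the log2 scale. The median Oc90 cell held 2631, 4087.5 and 3567.5 UMIs in the E16 libraries, fewer than at E14. Of the 15 genes, 10 were ribosomal protein genes or a pseudogene of one and 1 was mitochondrial (mt-Co1), and in the other cells, too, 14 of the 15 were lower in both E14 libraries than in any E16 library. These 14 thus differed between the libraries of the ages in both classes of cells. Mitochondrial transcripts summed to 5226 and 7422 CPM in Oc90 cells at E14 and 18716, 16755 and 12603 CPM at E16, and their part in the differences was not tested.

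The remaining 4 genes were Cited1, Vmo1, Ptgds and Mia. Vmo1, the exception, was near 0 in the other cells at both ages, and averaged 89.9 and 65.3 CPM in Oc90 cells at E14 and 251, 231 and 624 CPM at E16 (-1.98 ± 0.37 (SE), limma adjusted p = 0.0378). The difference between this change and that in other cells was -1.92 ± 0.43 (SE), with a limma adjusted p of 0.222. Cited1, a transcriptional coregulator, averaged 17.8 and 33.1 CPM at E14 and 144, 159 and 152 CPM at E16 (-2.22 ± 0.37 (SE)). Ptgds, prostaglandin D2 synthase, was at 304 and 277 CPM at E14 and 922, 899 and 1392 CPM at E16, and Mia, a secreted protein, at 587 and 502 CPM and 1937, 2056 and 1707 CPM. For these 4 genes all values at E16 lay above both at E14. The calls of this comparison were few and unsteady: leaving out 1 library gave between 0 and 27 genes, with none left without E16 library 1 or 2, 1 and 5 without E14 library 1 and 2, and 4 without E16 library 3. Drawn to 1500 UMIs 4 genes passed, and with 1 CPM added in place of 10 none did. Without the filter on low genes 44 passed as higher and 6 as lower at E14, with 4 of the 15 calls kept and all 15 of the same sign.

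The change from E14 to E16 differed between Oc90 cells and other cells for 1 of 9128 genes (0.011%) in the positive and 2 (0.0219%) in the negative direction. H19, an imprinted noncoding RNA, was at 433 and 419.9 CPM in the Oc90 cells at E14 and at 227, 169.6 and 203 CPM at E16, while the level in other cells went from 246 and 234 CPM to between 269 and 339 CPM. Ccnd1, cyclin D1, stayed between 81.5 and 131 CPM in all 5 sets of Oc90 cells and was lower at E16 in the other cells (341 and 379 CPM at E14, at most 129 CPM at E16). Krt18 differed by -0.95 ± 0.09 (SE), and 1 E16 library held a level of 4961 CPM where the other 2 held 1155 and 1402 CPM. Leaving out 1 library gave between 0 and 22 genes, 22 without E16 library 1, 9 without E16 library 3 and 0 without any 1 of the others.

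Between E14 and P1, 18 of 8923 genes (0.202%) were higher at E14 and 41 (0.459%) lower, with a median over all genes of 0.23. Whether the other cells of these libraries differed in the same way between E14 and P1 was not tested. Vmo1 reached 9976, 7632, 5653 and 5622 CPM at P1, a difference of -6.34 ± 0.36 (SE) (limma adjusted p = 9.61e-09). Rnase1 was at 41.2 and 16.3 CPM at E14 and 4732, 1434, 2568 and 5074 CPM at P1, Cited1 at 609, 501, 1070.0 and 614 CPM at P1, and Hspb1, a small heat shock protein, at 12.3 and 18.5 CPM and 514, 411, 283 and 579 CPM. Crhbp, the binding protein of corticotropin-releasing hormone, was at 0 and 0.655 CPM at E14 and 575, 272, 548 and 584 CPM at P1. Ttr was lower at E14 as well (-2.22 ± 0.47 (SE)), at 467 and 253 CPM, 1107, 619 and 2278 CPM and 2462, 1368, 2608 and 836 CPM at the 3 ages, and E16 did not pass the test against E14 for this gene. Ptgds and Mia were called lower at E14 than at P1 too (-2.21 and -1.89).

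The genes higher at E14 were Vwc2 (107 and 131 CPM against 0, 8.74, 0 and 0 CPM at P1), Mfap4, a microfibril protein (239.7 and 271 against 3.79, 18.7, 80.6 and 19.1 CPM), H19 (433 and 419.9 against 8.59, 40.5, 94.5 and 70.9 CPM), Smoc2 (235 and 202 against 3.40, 24.2, 18.9 and 41.4 CPM) and Gata2 (322 and 299 against 79.4, 39.1, 0 and 57.2 CPM). Gsc was also higher at E14, at 172 and 166 CPM against 25.6, 6.49, 53.5 and 36.9 CPM. Of the 8 genes named as lower in cells with Otoa, 4 (Gsc, Gata2, Vwc2 and Dlx2) were called higher at E14 than at P1 (0.202% over all genes), and of the 8 named as higher, 3 (Ttr, Vmo1 and Rnase1) were called lower (0.459% over all genes). Both comparisons use the same E14 Oc90 cells, so these counts are a description. The other 9 did not pass the test, and 2 called genes went the other way: Smoc2, higher with Otoa, was higher at E14, and Cited1, lower with Otoa (4.93 and 11.3 CPM against 21.0 and 36.4 CPM), was lower at E14. An Otoa UMI was found in 16 of 69, 4 of 16, 4 of 9 and 27 of 67 Oc90 cells of the P1 libraries. The lowest P1 levels of Vmo1 (5622 CPM) and Rnase1 (1434 CPM) were also above the levels in the E14 cells with Otoa (305 and 196 CPM and 139.6 and 68.4 CPM). The P1 libraries 2 and 3 held 16 and 9 Oc90 cells, and without them 43 genes were higher and 60 lower at E14. Leaving out 1 E14 library took the total of 59 to 17 (without library 1) or 11 (without library 2), and leaving out E16 library 1 or 2 took it to 32 or 34. Drawn to 1500 UMIs 16 genes passed, 1 as higher and 15 as lower at E14, and without the filter on low genes 130 and 24. With these 2 ages alone, 2 passed as higher and 25 as lower. With 1 CPM added in place of 10, 0 passed as higher and 26 as lower. None of the genes named as higher at E14 was thus called at that setting, though all 59 calls kept their sign.

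**Figure D5:**
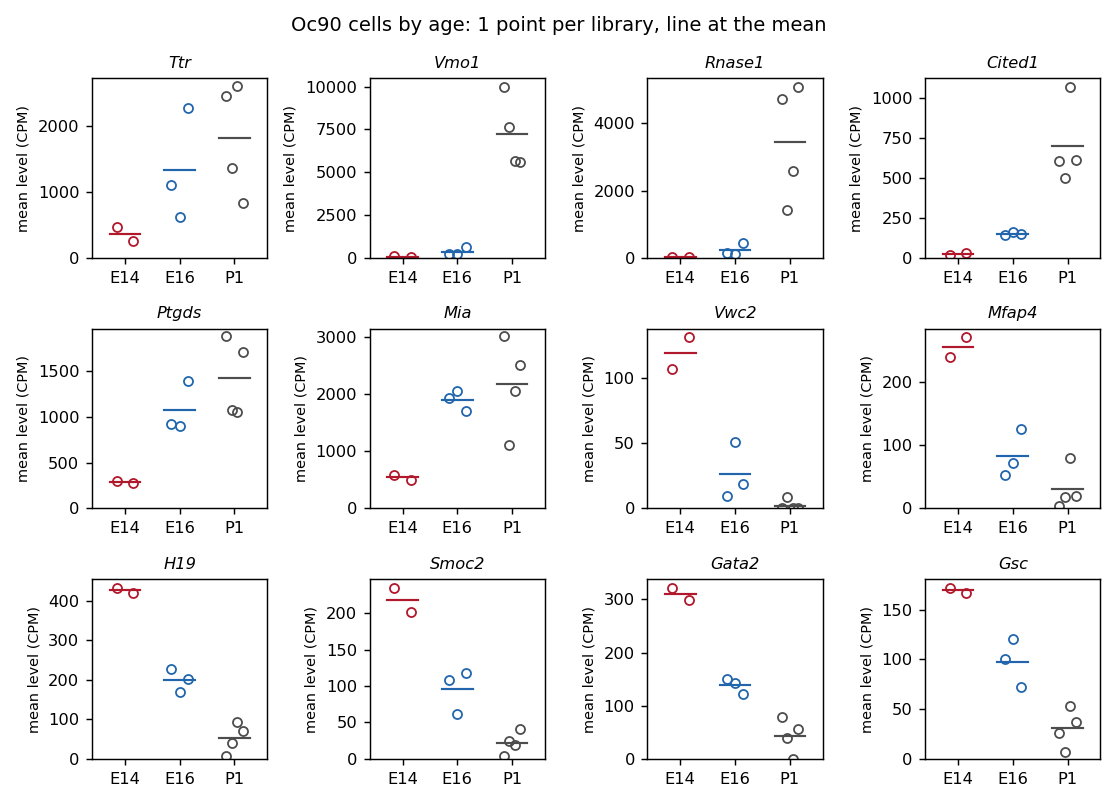
Mean level in CPM (vertical axis, from 0) of 12 genes in the Oc90 cells of each library at E14 (red, 2 libraries), E16 (blue, 3) and P1 (grey, 4), with 1 point per library and a line at the group mean. Vmo1, Rnase1 and Cited1 were highest at P1, and Vwc2, H19, Smoc2 and Gata2 were highest in both E14 libraries.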

How the data were processed

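Cochlear epithelium of wild type CD1 mice at E14, E16, P1 and P7 was captured with the 10x Chromium system (11 libraries). The authors aligned reads to mm10 and counted UMIs with Cell Ranger 2.1.1, then left out cells by genes, UMIs, mitochondrial share and stress genes in Seurat 2.0. The deposited values are the natural log of 1 plus a gene's UMIs per 10000 UMIs of its cell. All columns belonged to a listed sample. UMIs were recovered as whole numbers (tolerance 0.02) and gave each cell's depth, which for a share sets its precision. The intervals and the floor of 3 UMIs cover counting error only. No doublet caller was run.

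Samples were grouped by labelled age. Shares per cell were averaged per class and library and scaled to CPM. Genes whose mean level reached 10 CPM were tested on log2(CPM + 10) with limma 3.58.1 in R 4.3.3 (trend, Benjamini-Hochberg), with the library as block where both classes shared libraries. No count model was run, since the files hold normalized values. The fits were run on simulated data in which a library's effect was shared by its classes and no cells were sampled. Such data cannot show how the fits handle the spread of cells. Libraries are separate captures, and p-values cover the spread between them only. That spread was estimated mostly, and in the Otoa split wholly, from the genes as a group and not from each gene's own values. Replicate numbers were no block across ages, since same-numbered libraries did not deviate together (r between -0.0923 and 0.0749 across genes).

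The members and gene lists were chosen with earlier results of these data known. Smoc2, Foxq1, Socs2, Fbln2, Ccer2 and Pcp4 came from the study's own tables and are not independent. Rprm and some other members of the HC list were also named as HC markers by the study from its own single-cell data. Named genes were the label's markers, the genes that chose the cells, and per comparison the largest differences each way past the threshold (14 and 8 for Oc90 cells against other cells, 8 for the Otoa split and E16, 5 for P1 and for the differences of differences), with at least 50 CPM and the same direction in every library. Mitochondrial, ribosomal protein, haemoglobin, unnamed and sex-linked marker genes were kept out of that rule, and list members were named by level or as the extremes of a list. Further list members, and the genes set beside the Otoa and Ttr sets, were named after their values were seen. Alternatives changed the added constant, the filter, the averaging, the depth, the threshold, the block and the libraries. P7 was used for shares only. Some list members are not reported here by name.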

Additional observations from a re-analysis of the deposited data

Results flagged for a closer look

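For 3 genes the change from E14 to E16 in Oc90 cells differed from that in other cells by the limma test of the difference itself, by 1.39 (H19), -1.71 (Ccnd1) and -0.95 (Krt18) on the log2 scale. The Otoa split differed between Oc90 and other E14 cells, by the same kind of test, toward Oc90 cells for Hs3st1 (4.68), Emx2 (3.85), Fst (3.51), Tac1 (3.38) and Rprm (3.15), and in the opposite direction for Anxa1 (-4.36), Enpep (-3.37), Foxq1 (-3.36), Sparcl1 (-3.11) and Vwc2 (-3.04). In P1 library 2, with 16 Oc90 cells, Vwc2 (8.74 CPM) and Crhbp (272 CPM) lay far from the other 3 P1 libraries by Dixon's test, 2 of 16 groups tested, where chance marks about 1 in 20. Vwc2 was at 0 in the other 3, so any value there would be marked. P7 library 5, used in no comparison of levels, held 4 cells that met the Oc90 rule.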

How the results depend on the processing

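None of the values recomputed for the genes named by rule changed sign. Of other genes in the text, Smoc2 and Hes1 (Oc90 against other cells) changed sign in library 1 alone. Oc90 cells against other cells (3806 genes) kept a count within 1.5 times under all settings but the fit with no replicate block (2244). The Otoa split (566) gave 295 in cells of at most 3000 genes, 228 drawn to 1500 UMIs, 265 with no replicate block, 256 with Otoa called after drawing and 223 in cells of 2500 to 6000 UMIs. E14 against E16 (15) gave 0 with 1 CPM added, 28 with 50 CPM, 50 with no filter (44 higher, 6 lower), 7 in cells of at most 3000 genes, 4 drawn, 66 with the replicate block, 104 with these ages alone, 41 without the P1 libraries under 50 Oc90 cells (chosen after seeing the data) and 0 to 27 leaving out 1 library (27 without P1 library 1, 23 without P1 library 3). E14 against P1 (59) gave 26 with 1 CPM added, 154 with no filter (130 higher, 24 lower), 29 in cells of at most 3000 genes, 16 drawn, 27 with these ages alone, 103 without the small P1 libraries, 48 with the replicate block and 11 to 59 leaving out 1 library. The difference of differences from E14 to E16 (3) gave 0 with 1 CPM added, no filter, drawing or no replicate block, 10 with summed UMIs, 6 in cells of at most 3000 genes and 0 to 22 leaving out 1 library. The Otoa difference (274) gave 7 with no filter, 109 in cells of at most 3000 genes, 59 drawn and 149 with no replicate block. The causes were not tested. Across ages the replicates share only a number. Leaving out either E14 library left the comparisons within E14 with 1 library and no test, and at least 99.8211% of calls kept their sign. That share was largely set by the choice of the calls from the same libraries. The share of Oc90 cells was 16.7%, and 16.9% and 16.4% at thresholds of 3.0 and 4.0. With Oc90 left out of the totals, 1987 genes were higher and 1820 lower in Oc90 cells. Depth limits the shares of cells with a UMI, and P1 libraries 2 and 3 rest on 16 and 9 cells.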
